A study of Mus musculus with 12 samples.

Results

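The genes described here code for the membrane of the lysosome and for the proton pump that sits in it. They are 38 mouse genes chosen by symbol from 52459 genes in the count tables, 19 coding for subunits of the vacuolar H+-ATPase (V-ATPase) and 19 coding for other lysosomal membrane proteins, and all 38 symbols were found. RNA was sequenced from the cerebellum (Cb) and from the forebrain/midbrain (F/M) of male mice aged 4 months. The Tpp1-/- groups (Cb-T and F/M-T) are homozygous for a germline disruption of Tpp1 made by gene targeting, and the control groups (Cb-N and F/M-N) are wild-type siblings. Each of the 4 groups has 3 libraries. Both tissues came from 3 mice of each genotype, so Cb and F/M libraries share animals, but which libraries share one is not given in the sources used here, and comparisons between the tissues treat them as independent. The line is a model of the late infantile form of neuronal ceroid lipofuscinosis, the disease caused by loss of the lysosomal protease tripeptidyl peptidase 1.

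The lysosome degrades material brought to it by endocytosis and autophagy, and its hydrolases need an acid lumen. The V-ATPase supplies the acid: its cytosolic V1 sector hydrolyzes ATP and turns a rotor that drives protons through the membrane-embedded V0 sector, and the same pump loads synaptic vesicles in neurons. The other membrane proteins shield the membrane (Lamp1, Lamp2), carry hydrolases to the lysosome (Scarb2), export cholesterol, cystine, amino acids and metals (Npc1, Ctns, Slc38a9, Slc11a1), and pass ions (Mcoln1, the Tpcn channels, and the chloride-proton exchanger Clcn7 with its partner Ostm1). Many genes of the lysosome carry the E-box CACGTG near their start, and the transcription factor TFEB binds a longer form of it, the CLEAR element, in which GT comes before CACGTG and AC after it.

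Promoter windows running from 250 bases before to 50 bases after the start were held for 29 of the 38 genes (RefSeq, GRCm38.p6). CACGTG, which reads the same on both strands, was in a window of 8 of these 29 genes (27.6%), against 8.09% of all 27025 genes with a window and 7.15% of all 32851 windows. An exact match to the whole CLEAR element, which contains CACGTG, was in none of the 29 and in 0.37% of all genes. Near matches were not counted. Examples are the Mcoln1 site at -45, with AC after CACGTG but not GT before it, and the Atp6v0d1 site, with GT before but not AC after. The count therefore does not show that these promoters lack sites for TFEB. The sites of the 4 genes that hold more than 1 of them are shown in excerpts of 26 bases, CACGTG in capitals, with the position of its first base counted from the start:
Lamp1, -61, chr8:13159090-13159115, plus strand: ggcaagatatCACGTGgtccagcgcc
Lamp1, -45, chr8:13159106-13159131, plus strand: gtccagcgccCACGTGatgccgactg
Lamp1, -28, chr8:13159123-13159148, plus strand: tgccgactggCACGTGaccacatcac
Lamp1, -15, chr8:13159136-13159161, plus strand: gtgaccacatCACGTGcggaacggag
Mcoln1, -71, chr8:3500438-3500463, plus strand: tcgcgcttgtCACGTGttcagttcag
Mcoln1, -45, chr8:3500464-3500489, plus strand: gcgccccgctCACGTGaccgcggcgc
Clcn7, -15, chr17:25133366-25133391, plus strand: cgtcgtcagtCACGTGggcaccgatg
Clcn7, 8, chr17:25133388-25133413, plus strand: gatgatagatCACGTGagacctgggc
Atp6v0b, -36, chr4:117887350-117887375, minus strand: gcgcgggggtCACGTGgggtcggcgc
Atp6v0b, -18, chr4:117887332-117887357, minus strand: gtcggcgcatCACGTGcgccggtcag
The other 4 genes, Atp6v0d1, Atp6v0e, Atp6v1a and Mcoln2, hold 1 site each.

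The libraries held 21428379 to 24458189 counts each. Levels are given as CPM, counts scaled to library size, after TMM scaling within a tissue, so that the 3 counts taken as the detection floor are 0.123 to 0.140 CPM. Tpp1 itself (chr7:105744811-105752235, minus strand, GRCm38) fell from 91.4, 85.6 and 85.3 CPM in F/M-N to 23.7, 21.5 and 23.2 CPM in F/M-T, and from 114, 116 and 114 CPM in Cb-N to 28.7, 31.8 and 30.9 CPM in Cb-T, so every library matched its label, with part of the transcript signal left. Markers of other cells and regions differed between genotypes as well. The summed level of 20 microglial markers, all of which were detected in every group, was 218 to 231 CPM in Cb-N and 735 to 746 CPM in Cb-T, and 599 to 626 CPM in F/M-N and 896 to 918 CPM in F/M-T. These sums and those below are also scaled within a tissue. Markers of other glia rose too: all 10 oligodendrocyte markers were higher in Cb-T at an FDR under 0.1, their sum going from 4923 to 5034 CPM in Cb-N to 6471 to 6551 CPM in Cb-T, while in F/M 1 was higher and 2 lower. Of 10 astrocyte markers, 9 were higher and 1 lower in Cb-T (6456 to 6486 CPM in Cb-N, 8422 to 8437 CPM in Cb-T), and 9 were higher in F/M-T (5373 to 5627 CPM in F/M-N, 6368 to 6696 CPM in F/M-T). The 10 Hox genes of the hindbrain summed to 5 to 12 counts per library in Cb-N, with 4 of the 10 at 0 in all 3, and to 286 to 309 counts per library in Cb-T, with none at 0. In F/M, 7 of 10 olfactory bulb markers were lower in F/M-T at 1.5-fold, their sum being 197 to 213 CPM in F/M-N and 155 to 161 CPM in F/M-T. In bulk tissue, more cells of a type and more RNA per cell cannot be told apart. Markers of cell types and of brain regions thus moved with genotype in both tissues, and their part in the changes that follow was not tested.

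In the cerebellum, most of these genes were higher in Cb-T, the great majority by a small amount. A gene was called differentially expressed (DEG) at a false discovery rate (FDR) under 0.1 and a change of at least 1.5-fold. By this rule 4 of the 37 genes tested were higher (Atp6v0d2, Slc11a1, Laptm5 and Cd63) and 0 were lower, against 8.54% of all 16382 genes tested higher and 2.66% lower. At an FDR under 0.1 with any fold change, 26 of 37 (70.3%) were higher and 8 (21.6%) lower, against 29.8% and 27.9% of all genes. The median log2 fold change was 0.12 over the 37 genes and 0.01 over all genes. In 26 genes every Cb-T library lay above every Cb-N library and in 7 every one lay below, where all genes gave 29.3% and 27.6%. Atp6v0d2 passed the filter on low counts only through Cb-T, so it had to differ if it was tested; without it, 3 of 36 genes were DEG, 25 of 36 higher and 8 lower. The remaining gene, Mcoln2, a cation channel of the TRPML family, had 0 to 3 counts per library and was not tested.

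In F/M the same direction was seen with fewer genes past the threshold. Slc11a1 and Cd63 were DEG, both higher, making 2 of 36 tested, against 2.63% of all 16665 genes higher and 0.858% lower. At any fold change, 16 of 36 (44.4%) were higher and 2 (5.56%) lower, against 12.8% and 14.4% of all genes, and the median log2 fold change was 0.07 against 0.01. Without F/M-N replicate 1 or without F/M-T replicate 1 the DEG count was 1, because Cd63 lay close to the 1.5-fold limit. The libraries did not overlap in 18 genes with F/M-T above and in 4 with F/M-T below, where all genes gave 17.7% and 17.8%. Of the members, 14 were higher in both tissues, 53.8% of the 26 in Cb and 87.5% of the 16 in F/M, where over all genes 30.3% of those higher in Cb and 69.4% of those higher in F/M were higher in both. They were Lamp1, Lamp2, Scarb2, Cd63, Ostm1, Laptm4a, Laptm4b, Laptm5, Tmem192, Slc11a1 and the V-ATPase genes Atp6ap1, Atp6v1b2, Atp6v1g1 and Atp6v1h.

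**Figure D1:**
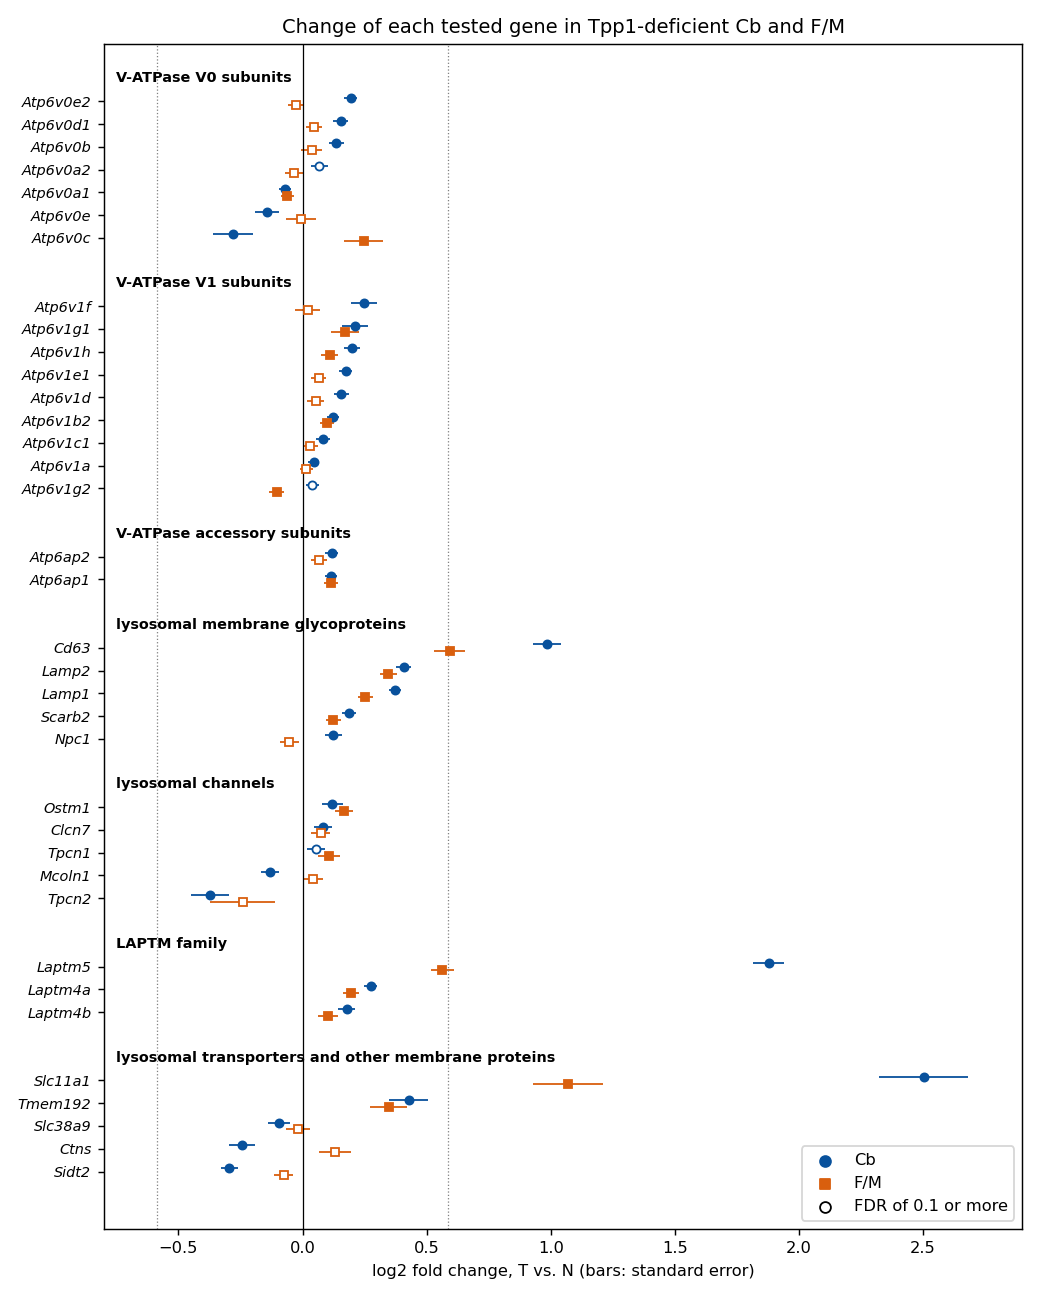
Log2 fold change of Tpp1-/- against control (x axis) for the 36 genes tested in both tissues, by role; circles are Cb, squares are F/M, bars are standard errors, open symbols have an FDR of 0.1 or more, and dotted lines mark 1.5-fold. Atp6v0d2 and Mcoln2 are left out for their low counts; Slc11a1, Laptm5 and Cd63 stand to the right in both tissues, and the V1 subunits lie between -0.10 and 0.25.

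Among the glycoproteins of the lysosomal membrane, all 5 were higher in Cb-T and 4 of 5 in F/M-T at an FDR under 0.1, where 29.8% and 12.8% of all genes were. Lamp1 and Lamp2, the most abundant proteins of that membrane, rose in both. Lamp1 was measured at 372, 365 and 384 CPM in Cb-N and 480, 472 and 498 CPM in Cb-T, a change of 0.37 ± 0.02 on the log2 scale (± SE here and below; adjusted p = 8.51e-17), and at 324, 311 and 323 CPM in F/M-N and 383, 371 and 388 CPM in F/M-T, a change of 0.25 ± 0.03 on the log2 scale (adjusted p = 2.73e-06). Lamp2 was at 130, 129 and 126 CPM in Cb-N and 175, 165 and 170 CPM in Cb-T (log2 change 0.41 ± 0.03, adjusted p = 1.28e-15), and at 92.2, 95.8 and 97.6 CPM in F/M-N and 123, 118 and 122 CPM in F/M-T (0.35 ± 0.04, adjusted p = 6.3e-07). In both genes and both tissues every mutant library was above every control library. Scarb2, the receptor that takes beta-glucocerebrosidase to the lysosome, was higher by 0.19 on the log2 scale in Cb and by 0.12 in F/M. Npc1, the cholesterol exporter, rose by 0.12 in Cb, was -0.05 in F/M without passing the test (adjusted p = 0.351), and differed between the tissues by 0.20 (adjusted p = 0.00511).

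Cd63 (chr10:128900989-128912822, plus strand, GRCm38), a tetraspanin of late endosomes, lysosomes and exosomes, had the largest change of the 5 in both tissues. Its level was 19.5, 19.8 and 21.5 CPM in Cb-N and 39.95, 37.5 and 42.8 CPM in Cb-T, a change of 0.98 ± 0.06 on the log2 scale (adjusted p = 6.32e-19). In F/M it was 15, 16.04 and 16.2 CPM in the controls and 24.6, 23.0 and 23.7 CPM in F/M-T, a change of 0.59 ± 0.06 on the log2 scale (adjusted p = 7.32e-07). The groups were separate in both tissues, and the change was larger in Cb by 0.41 ± 0.09 (adjusted p = 0.000633). Of the 50-base stretches of the Cd63 exons, 11.1% were also in exons of other genes, chiefly the pseudogene Cd63-ps, so its counts are less certain than those of Lamp1 (5.9%) or Lamp2 (0.663%).

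The LAPTM family contains small multi-pass proteins of late endosomes and lysosomes, of which Laptm5 is expressed in blood cells and microglia. All 3 were higher in both tissues, as were 29.8% of all genes in Cb and 12.8% in F/M. Laptm5 (chr4:130913125-130936141, plus strand, GRCm38) was at 10.4, 11.5 and 9.82 CPM in Cb-N and 38.9, 38.9 and 38.7 CPM in Cb-T, a change of 1.88 ± 0.06 on the log2 scale (adjusted p = 2.13e-27). In F/M it was at 30.1, 31.6 and 32.7 CPM in the controls and 46.7, 47.1 and 45.7 CPM in F/M-T, a change of 0.56 ± 0.05 on the log2 scale (adjusted p = 3.68e-08), just under the 1.5-fold limit of 0.585. The level was thus lowest in Cb-N and highest in F/M-T, with no overlap between any of the 4 groups on these scales, and the change was larger in Cb by 1.33 ± 0.08 (adjusted p = 3.03e-14). Laptm4a rose by 0.27 in Cb and 0.19 in F/M, and Laptm4b by 0.18 and 0.10. In F/M the Laptm4b libraries overlapped between the groups, and its call was near the limit (adjusted p = 0.0846).

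Slc11a1 (chr1:74375195-74386062, plus strand, GRCm38) codes for the NRAMP1 transporter, which moves divalent metals out of the phagosomes and lysosomes of macrophages. It was at 0.948, 1.07 and 0.708 CPM in Cb-N and 4.90, 5.32 and 5.33 CPM in Cb-T, a change of 2.502 ± 0.18 on the log2 scale (adjusted p = 1.08e-15). In F/M it was at 2.23, 2.30 and 2.34 CPM in the controls and 4.17, 5.19 and 5.06 CPM in F/M-T, a change of 1.07 ± 0.14 on the log2 scale (adjusted p = 1.6e-05). The mutant libraries of both tissues reached about the same level from unequal control levels, and the change was larger in Cb by 1.45 ± 0.24 (adjusted p = 2.52e-05). Laptm5 and Slc11a1 thus moved in the same direction as the microglial markers, whose sum also rose in both tissues. That sum was also lowest in Cb-N, with each tissue on its own scale. The markers also changed more in Cb: all 20 had a larger change there at an FDR under 0.1. The sum of 10 markers of border macrophages and monocytes was 11.4 to 12.8 CPM in Cb-N, 16.5 to 17.2 CPM in Cb-T, 14.0 to 16.7 CPM in F/M-N and 16.6 to 17.7 CPM in F/M-T.

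Atp6v0d2 (chr4:19876841-19922605, minus strand, GRCm38), the second form of the V0 d subunit, which is known from osteoclasts and macrophages, was close to the detection floor. Its counts were 0, 0 and 1 in Cb-N and 16, 13 and 20 in Cb-T, and 2, 0 and 0 in F/M-N and 7, 4 and 8 in F/M-T. Summed over the libraries, Cb-T held 44.8 times the Cb-N level (95% exact interval of the counts 7.68 to 1807) and F/M-T held 9.52 times the F/M-N level (2.30 to 84.3). These intervals cover counting error only, and no fitted fold change or p is given for Cb, where the gene reached the minimum of 10 counts in Cb-T alone, so that its direction there was set by the filter. The gene was not tested in F/M, where too few libraries passed the filter on low counts, and the difference between the tissues did not pass the test (2.05 ± 1.72, adjusted p = 0.449).

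**Figure D2:**
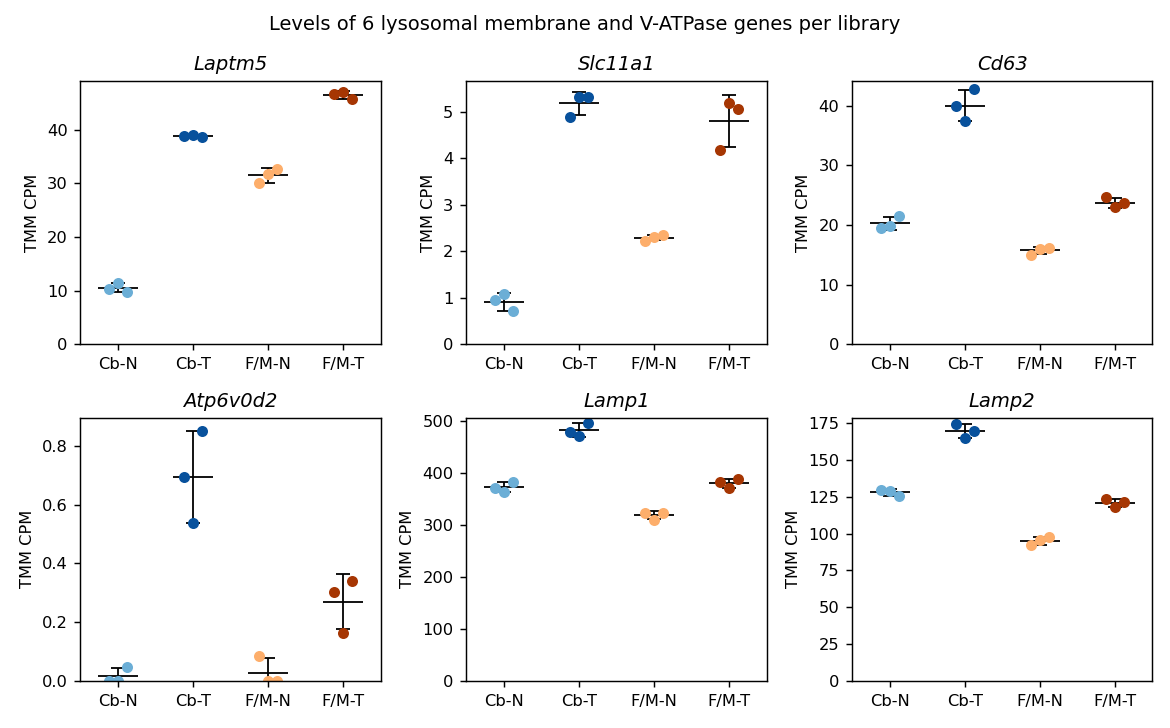
TMM CPM (y axis) of 6 genes in the 3 libraries (points) of each group (x axis), with the mean (line) and SD (bars). Every T library lies above every N library of its tissue in all 6 genes; Laptm5 and Slc11a1 are lowest in Cb-N, and Atp6v0d2 stays under 1 CPM.

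Of the V-ATPase subunits tested, none other than Atp6v0d2 reached a change of 1.5-fold in either tissue. In Cb, 14 of 19 (73.7%) were higher and 3 (15.8%) lower at an FDR under 0.1, against 29.8% and 27.9% of all genes, with a median log2 fold change of 0.12, and without Atp6v0d2 13 of 18 were higher. In the V1 sector, 8 of 9 subunits were higher in Cb-T and 0 lower, from 0.04 for the catalytic subunit Atp6v1a (adjusted p = 0.0895) to 0.25 for the rotor subunit Atp6v1f (adjusted p = 7.91e-05), and Atp6v1g2, the neuronal form of a stator subunit, was at 0.04 without passing the test (adjusted p = 0.219). The catalytic-sector subunit Atp6v1b2 was at 496, 494 and 513 CPM in Cb-N and 529, 553 and 553 CPM in Cb-T, a rise of 0.12 ± 0.02. Atp6v1h, the regulatory subunit, rose by 0.20 ± 0.03 and Atp6v1e1, of the stator, by 0.17 ± 0.03. The accessory subunits Atp6ap1, which aids assembly, and Atp6ap2, also called the prorenin receptor, were each higher by 0.11 to 0.12. The call of Atp6v1a was lost with DESeq2 (adjusted p = 0.236).

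The V0 sector was mixed in Cb. Atp6v0b, Atp6v0d1 and Atp6v0e2 were higher, Atp6v0a1, Atp6v0c and Atp6v0e lower, and Atp6v0a2 did not pass the test (0.07, adjusted p = 0.102). Atp6v0d2 was higher too, but it passed the filter on low counts only through Cb-T, so its direction was set by the filter. Of all genes, 29.8% were higher and 27.9% lower. Atp6v0e2 was at 247, 241 and 248 CPM in Cb-N and 270, 285 and 286 CPM in Cb-T (log2 change 0.19 ± 0.03), while its paralog Atp6v0e went from 35.4, 38.5 and 39.3 CPM to 34.5, 33.8 and 34.2 CPM (-0.14 ± 0.05, adjusted p = 0.0133). Atp6v0a1, the a subunit most abundant in neurons, fell from 433, 430 and 421 CPM to 406, 409 and 406 CPM in Cb (-0.07 ± 0.02), and was -0.06 ± 0.03 in F/M (adjusted p = 0.096), where the call was lost with DESeq2 (adjusted p = 0.15). It was the 1 gene lower in both tissues.

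In F/M, 5 of 18 V-ATPase genes tested (27.8%) were higher and 2 (11.1%) lower, against 12.8% and 14.4% of all genes, so that the lower ones were no more frequent than among all genes, with a median log2 fold change of 0.04. The 5 were Atp6v1b2, Atp6v1g1, Atp6v1h, Atp6ap1 and Atp6v0c, with changes of 0.10 to 0.25, and the number was 8 without F/M-N replicate 3 and 3 without F/M-T replicate 1. Atp6v1g2 fell from 387, 368 and 385 CPM in F/M-N to 364, 349 and 348 CPM in F/M-T (-0.10 ± 0.03, adjusted p = 0.0162), and the groups did not overlap. The 2 lower genes were not called without F/M-N replicate 1 or without F/M-T replicate 3. The olfactory bulb and astrocyte markers given above moved with the same libraries, as did 10 pan-neuronal markers, whose sum was 9940 to 9965 CPM in F/M-N and 9557 to 9571 CPM in F/M-T.

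Atp6v0c, which forms most of the proton-carrying ring, was the 1 gene called in opposite directions. It was at 13.9, 17.0 and 16.7 CPM in Cb-N and 13.9, 13.8 and 11.5 CPM in Cb-T (log2 change -0.28 ± 0.08, adjusted p = 0.00386), and at 13.1, 13.7 and 15.9 CPM in F/M-N and 16.8, 17.9 and 16.04 CPM in F/M-T (0.25 ± 0.08, adjusted p = 0.0285). The ranges of the groups nearly met in both tissues, and the difference between the tissues was -0.51 ± 0.12 (adjusted p = 0.0025). The rise in F/M lost its call without F/M-N replicate 1 (adjusted p = 0.149) or without F/M-T replicate 2 (adjusted p = 0.105). Of its 50-base stretches, 10.8% are shared with processed pseudogenes, which makes its count uncertain, as are those of Atp6v1f (11.2%) and Atp6v1g1 (19.2%).

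Of 5 channels tested, 2 were lower and 2 higher in Cb-T at an FDR under 0.1. Of 5 transporters and other membrane proteins, 3 were lower and 2 higher. Over all genes, 27.9% were lower and 29.8% higher. Tpcn2, a lysosomal cation channel, was at 17.4, 15.2 and 17.9 CPM in Cb-N and 13.4, 13.7 and 11.9 CPM in Cb-T (log2 change -0.37 ± 0.08, adjusted p = 7.21e-05). Sidt2, a membrane protein linked to nucleic acid uptake by lysosomes, went from 115, 117 and 115 CPM to 87.8, 97.0 and 97.4 CPM (-0.30 ± 0.03, adjusted p = 1.02e-09), and Ctns, the cystine exporter, from 32.2, 30.4 and 30.0 CPM to 25.4, 26.2 and 26.6 CPM (-0.24 ± 0.05, adjusted p = 0.000142). In these 3 genes every Cb-T library was below every Cb-N library, as in 27.6% of all genes. Mcoln1, the calcium and iron channel TRPML1, fell by 0.13 and Slc38a9, an amino acid transporter that signals to mTORC1, by 0.09 (adjusted p = 0.0757, and 0.15 with DESeq2). In F/M none of the 5 passed the test, at -0.24 for Tpcn2 (adjusted p = 0.214), -0.08 for Sidt2, 0.13 for Ctns, 0.04 for Mcoln1 and -0.02 for Slc38a9, and the difference between the tissues passed it for Ctns (-0.36 ± 0.08, adjusted p = 0.00125), Sidt2 (-0.20 ± 0.05, adjusted p = 0.00706) and Mcoln1 (-0.15 ± 0.05, adjusted p = 0.0421). Markers of the cerebellum's own neurons were lower in Cb-T as well: 10 Purkinje cell markers summed to 11252 to 11498 CPM in Cb-N and 9445 to 9519 CPM in Cb-T, and 10 granule cell markers to 6081 to 6152 CPM and 5138 to 5273 CPM.

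Tmem192, a lysosomal membrane protein used to tag the organelle, was higher in both tissues. It was at 13.6, 11.9 and 12.3 CPM in Cb-N and 14.99, 18.4 and 17.3 CPM in Cb-T (log2 change 0.43 ± 0.08, adjusted p = 1.3e-05), and rose by 0.35 ± 0.07 in F/M (adjusted p = 0.00206). The exchanger partner Ostm1 rose by 0.12 in Cb and 0.17 in F/M. Clcn7 was higher by 0.08 in Cb (adjusted p = 0.0551, and 0.203 with DESeq2) and was at 0.07 in F/M (adjusted p = 0.203). Tpcn1 was at 0.05 in Cb without passing the test and higher by 0.11 in F/M (adjusted p = 0.0909, and 0.262 with DESeq2).

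Tested directly, the change from N to T differed between the tissues in 17 of 37 genes at an FDR under 0.1. It was more positive in Cb for 13 (35.1%) and more negative for 4 (10.8%), against 17.4% and 10.1% of all 17482 genes. By at least 1.5-fold, 2 genes differed, Slc11a1 and Laptm5, both more positive in Cb, where all genes gave 6.41% in that direction and 1.2% in the other. By edgeR 0 were more negative by 1.5-fold, although 1 was without F/M-N replicate 3, Cb-N replicate 1 or Cb-T replicate 1. The 13 also included the V-ATPase genes Atp6v1f (0.25), Atp6v0e2 (0.24), Atp6v1g2 (0.16), Atp6v1e1 (0.13), Atp6v0d1 (0.13), Atp6v1d (0.12) and Atp6v0a2 (0.12). The count of 13 varied with the processing: it was 9 with DESeq2 or with RLE size factors, 8 when genes under a mean of 50 counts were dropped, 6 without Cb-T replicate 1 and 7 without Cb-T replicate 3. Its V-ATPase part of 7 was 2 without Cb-T replicate 1. All 10 oligodendrocyte markers and all 20 microglial markers also had a more positive change in Cb at an FDR under 0.1.

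The tissues already differed in the controls, and there the V-ATPase and the other membrane proteins parted. Of the 18 V-ATPase genes tested, 14 were lower in Cb-N than in F/M-N and 2 higher, with a median log2 fold change of -0.42. Of 10 pan-neuronal markers, 7 were lower in Cb-N and 3 higher, with a median of -0.67. Their sums, each scaled within its tissue, were 7617 to 7690 CPM in Cb-N and 9940 to 9965 CPM in F/M-N. All 10 oligodendrocyte markers were lower, with a median of -0.41. The part of these markers in the V-ATPase difference was not tested. Of 18 other membrane protein genes, 12 were higher in Cb-N and 5 lower, with a median of 0.20. All genes gave 40.3% higher and 40.1% lower at any fold change, and 19.2% and 22.8% at 1.5-fold, where the 36 members gave 4 and 6. Their libraries lay wholly above in 13 genes and wholly below in 19, where all genes gave 39.2% and 39%. The V1 sector was lower in Cb-N in 8 of 9 subunits, from -0.30 for Atp6v1f to -0.80 for Atp6v1d, with Atp6v1g1, at -0.02, not past the test (adjusted p = 0.771). Atp6v0e went the other way, at 0.71 ± 0.05, while its paralog Atp6v0e2 was at -0.49 ± 0.03.

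Among the other membrane proteins, Tpcn2 was 4.04-fold higher in Cb-N than in F/M-N (log2 change 2.01 ± 0.10), the largest difference upward. It was at 3.95, 3.65 and 4.24 CPM in F/M-N. Ctns (0.80 ± 0.06) and Tpcn1 (0.69 ± 0.04) were also higher in Cb-N by over 1.5-fold. Laptm5 (-1.65 ± 0.07) and Slc11a1 (-1.40 ± 0.21) were lower there, as were all 20 microglial markers.

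**Figure D3:**
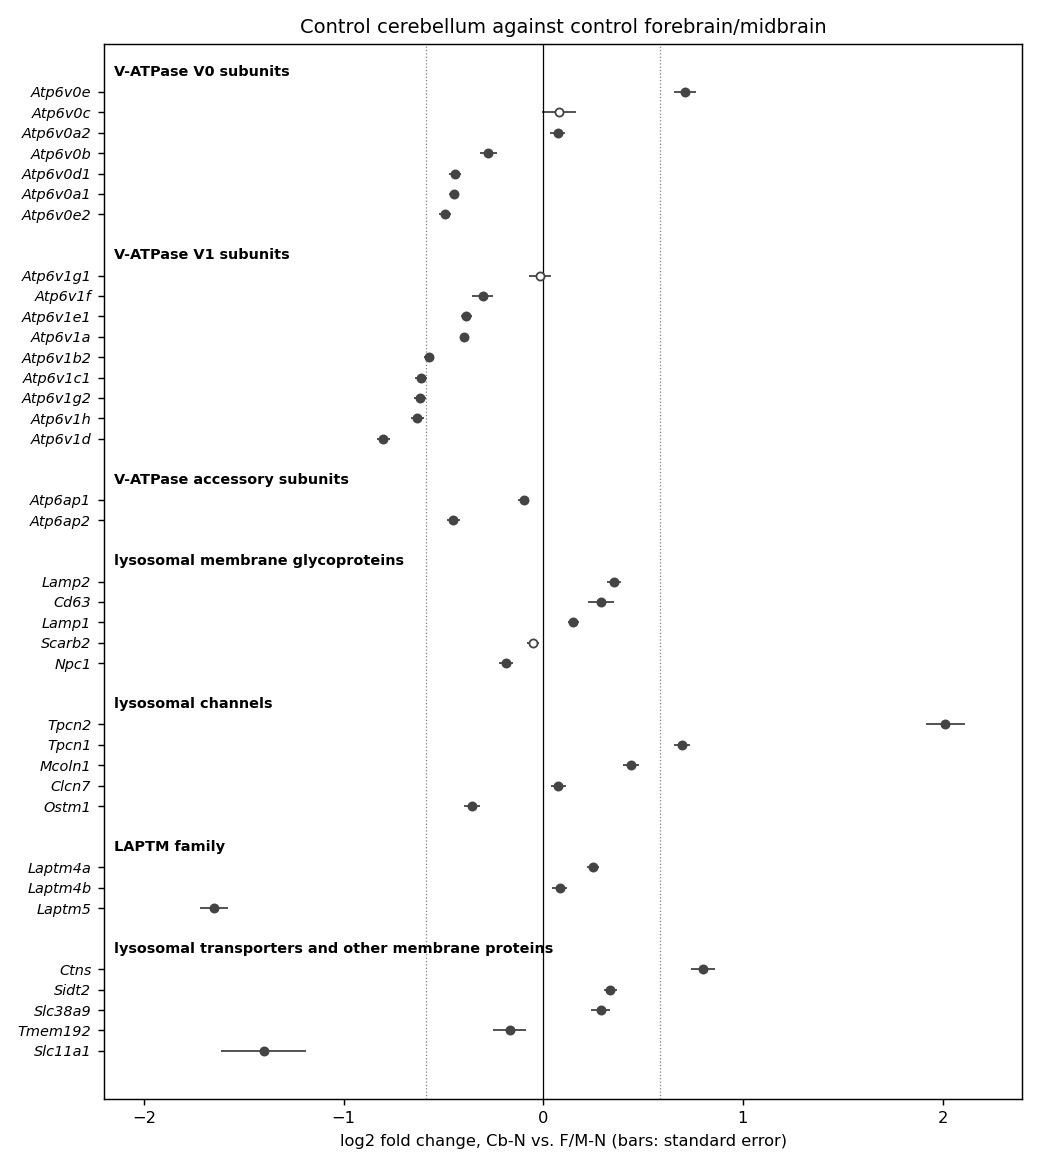
Log2 fold change of Cb-N against F/M-N (x axis) for the 36 genes tested, by role; bars are standard errors, open circles have an FDR of 0.1 or more, and dotted lines mark 1.5-fold. The V1 subunits lie left of 0, and 3 of 5 glycoproteins and 4 of 5 channels were higher in Cb-N at an FDR under 0.1, where 40.3% of all genes were.

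Per kilobase of exon, the V-ATPase genes stood above most of the others. Their median level was 73.0 CPM per kilobase in F/M-N and 58.9 in Cb-N, against 8.07 and 9.03 for the 19 other membrane proteins. The 5 highest in F/M-N were Atp6v1g2 (151 ± 4.24 CPM per kilobase, SD, n = 3), Atp6v0e2 (137 ± 5.33), Atp6v1b2 (133 ± 3.23), Lamp1 (119 ± 2.70) and Atp6ap1 (119 ± 1.52). The libraries of Atp6v0e2 and Atp6v1b2 overlapped, as did those of Lamp1 and Atp6ap1, so the order within each pair is not settled. In Cb-N the order began with Lamp1 (140 ± 3.58), Laptm4a (123 ± 3.16) and Atp6ap1 (117 ± 2.94), and in Cb-T Lamp1 reached 181 ± 4.89. Atp6v0c, at 4.21 ± 0.44 in F/M-N and 4.69 ± 0.49 in Cb-N, was the lowest of the V-ATPase genes apart from Atp6v0d2. Of its 50-base stretches, 10.8% are shared with processed pseudogenes, so this low level is uncertain. Dividing by the longest transcript instead of all exons raised a gene's value by 1.00 to 2.65 times, most for Lamp2 and Mcoln1, and changed the order: Atp6v1b2 then came first in both control groups (250.6 CPM per kilobase in F/M-N and 177 in Cb-N), Lamp1 (168) second in Cb-N, and Laptm4a (123 in Cb-N) and, in F/M-N, Lamp1 (143) were no longer among the 5 highest.

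Where a subunit has 2 forms, the share of each was computed per length within a library. The form typical of neurons made up most of the e and g subunits: Atp6v0e2 was 95.9% ± 0.09 (SD, n = 3) of Atp6v0e and Atp6v0e2 together in F/M-N and 91.0% ± 0.49 in Cb-N, and Atp6v1g2 was 86.4% ± 0.57 and 80.7% ± 1.18 of Atp6v1g1 and Atp6v1g2. Of the 50-base stretches of Atp6v1g1, 19.2% are shared with processed pseudogenes. How such reads were counted is not given, so the size of the Atp6v1g2 share is uncertain. In Cb-T the share of Atp6v0e2 was higher, at 92.7% ± 0.28, and that of Atp6v1g2 lower, at 78.8% ± 0.64. In F/M-T the share of Atp6v1g2 was 84.0% ± 0.66 and that of Atp6v0e2 95.8% ± 0.28, the latter overlapping the controls. Each of these differences apart from the last had no overlap between the groups, an exact 2-sided permutation p of 0.1, the smallest that 3 against 3 libraries allow, and an adjusted p of 0.15 over the 18 shares tested.

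The shares of 5 other families were compared in the same way. Tpcn2 was 26.2% ± 2.36 of the Tpcn1 and Tpcn2 level in Cb-N and 20.9% ± 1.11 in Cb-T, and 12.4% ± 0.78 in F/M-N and 10.04% ± 0.85 in F/M-T. Atp6v0a2 was 17.2% ± 0.69 of the a1 and a2 level in Cb-N and 18.6% ± 0.33 in Cb-T, with overlap in F/M. Laptm5 was 1.65% ± 0.16 of the LAPTM level in Cb-N and 4.92% ± 0.02 in Cb-T, and 5.70% ± 0.23 in F/M-N and 7.36% ± 0.27 in F/M-T. Laptm4b was 25.7% ± 0.53 of that level in Cb-N and 23.6% ± 1.20 in Cb-T, and 26.8% ± 0.52 in F/M-N and 25.1% ± 0.19 in F/M-T, while the Laptm4a share overlapped in both tissues. Atp6v0d2 made up at most 0.303% of the d subunit level in any library, higher in both T groups, and Mcoln2 at most 0.386% of the Mcoln1 and Mcoln2 level, with overlap in both tissues. The Tpcn2, Laptm4b, Laptm5 and Atp6v0d2 groups were separate in both tissues, and the Atp6v0a2 groups in Cb, each again at the smallest exact permutation p of 0.1 (adjusted p = 0.15). The Atp6v0d2 share rests on few counts, at most 20 in a library. In Cb the gene reached 10 counts in Cb-T alone, so its share there is given as a description only.

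**Figure D4:**
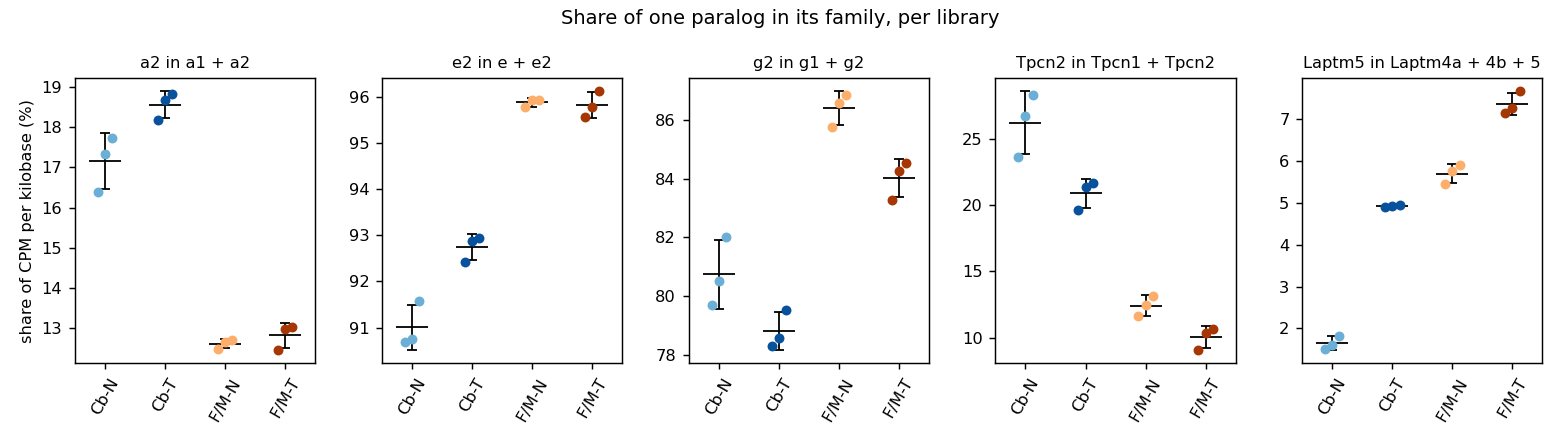
Share of CPM per kilobase (y axes, %, not starting at 0) held by 1 form of 5 families in each group (x axes); points are the 3 libraries in rising order, with the mean (line) and SD (bars). The Atp6v1g2 and Tpcn2 shares are lower in both T groups than in their controls, and the Laptm5 share is higher in both.

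Genes of the same pathway that are not among the 38 were counted from 2 further lists. Of 46 other lysosomal membrane genes, 45 were tested in Cb, where 26 were higher and 8 lower at an FDR under 0.1, and 44 in F/M, where 15 were higher and 4 lower. These are 57.8% higher and 17.8% lower in Cb, against 29.8% and 27.9% of all genes, and 34.1% and 9.09% in F/M, against 12.8% and 14.4%. In Cb 6 of them were DEG, all higher, where 8.54% of all genes were. Cd68, the macrophage relative of the LAMP proteins, was at 2.80, 2.89 and 2.31 CPM in Cb-N and 21.5, 24.8 and 23.7 CPM in Cb-T (log2 change 3.13 ± 0.10), and rose by 1.36 ± 0.08 in F/M. The peptide and histidine transporter Slc15a3 rose by 1.94 in Cb and 1.61 in F/M, and Slc37a2, a sugar phosphate exchanger, by 0.70 in Cb. Litaf, an endosomal membrane protein, rose by 0.59 in Cb. The cation channel Mcoln3, the remaining one of the 6, held 11 to 28 counts in a Cb-T library against 2 to 6 in a control library, and passed the filter on low counts only through Cb-T, so its direction was set by the filter; 5 are left without it.

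Lamp5, the LAMP protein of forebrain neurons, had the largest change of these 6. It was at 1.71, 1.12 and 1.51 CPM in Cb-N and 13.7, 14.9 and 15.6 CPM in Cb-T (log2 change 3.34 ± 0.13), while F/M-N held 127, 123 and 128 CPM and F/M-T 124, 120 and 121 CPM (-0.05, adjusted p = 0.292). The counts of Hox genes given above were higher in the same libraries.

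Of 16 other V-ATPase genes, forms of other tissues and assembly factors among them, 11 were tested in Cb and 12 in F/M, with 2 higher and 5 lower in Cb and 1 higher and 5 lower in F/M, and 0 DEG by edgeR in either. The shares higher, 18.2% in Cb and 8.33% in F/M, lay below the 29.8% and 12.8% of all genes, and the shares lower, 45.5% and 41.7%, above the 27.9% and 14.4%. Tcirg1, the a3 subunit of osteoclasts and macrophages, rose by 0.49 ± 0.08 in Cb and was at 0.10 in F/M without passing the test (adjusted p = 0.334). Dmxl1 and Dmxl2, the rabconnectins that help V1 join V0, each fell by 0.33 in Cb, and by 0.16 and 0.10 in F/M. Wdr7, their partner in the same complex, was at 0.03 in Cb without passing the test (adjusted p = 0.328) and fell by 0.10 in F/M (adjusted p = 0.0303).

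Medians were no higher for genes with CACGTG in the promoter window than for those without it. Of the 7 tested, 5 were higher and 2 lower in Cb, with a median log2 fold change of 0.08, and of the 21 tested with a window but without CACGTG, 14 were higher and 6 lower, with a median of 0.16. In F/M 1 of 7 was higher, Lamp1, against 10 of 21, with medians of 0.04 and 0.11. Of all genes, 29.8% were higher and 27.9% lower in Cb and 12.8% higher in F/M, so the 1 of 7 in F/M is about the share among all genes. Lamp1, which holds 4 sites, rose in both tissues, whereas Mcoln1, which holds 2, fell in Cb.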

How the data were processed

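RNA-seq counts of 12 libraries were used (polyA-selected stranded kit, single-end reads of 50 bases). Per the labels and the study's methods, the authors aligned reads to GRCm38 (mm10) with STAR (2.5.1b in the labels), and deposited raw counts per gene; the labels list featureCounts 1.26.1 and Cufflinks 2.2.1 for quantification, and the strand setting and multi-mapping rule of the counting are not given in the sources used here. Every listed gene row was used.

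Genes were filtered with filterByExpr (at least 10 counts in enough libraries, 15 in total), scaled by TMM and tested with edgeR 4.0.16 (quasi-likelihood, R 4.3.3), each tissue on its 6 libraries, the control tissues on theirs and the tissue-by-genotype term on all 12; p-values were adjusted by Benjamini-Hochberg over all genes tested. Alternatives were DESeq2 1.42.0, limma-voom 3.58.1, RLE scaling, other filters, 1 fit of 12 libraries, an FDR of 0.05, a replicate block and leaving out each library. Paralog shares were compared by exact permutation. On simulated counts with 200 genes changed 2-fold, 190 were recovered in Cb with 7 false calls among 16341 genes, and 164 with 5 false calls among 17440 genes for the tissue-by-genotype term. Calls there needed a 1.5-fold change, so recovery and false calls at the smaller changes counted at any fold were not measured. Exon lengths came from GENCODE (GRCm38).

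The members and lists were chosen with earlier results of these data known. All 38 members, Tpp1, and DEG of the 2 further lists are named; markers are given as sums, with genes named after their values were seen where a count turns on them (Dmxl1, Dmxl2, Wdr7, Tcirg1). Replicates differed by more than sampling noise (chi-square per degree of freedom 1.28 to 3.59). Which library came from which mouse is not given in the sources used here, so p-values measure the spread between libraries, and fits between the tissues carry no term for the shared mice. Same-numbered libraries did not deviate together (correlations -0.02 to 0.06), so numbers were not used as pairs.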

Additional observations from a re-analysis of the deposited data

Results flagged for a closer look

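The results listed here are those whose change from N to T differed between Cb and F/M by the test of the difference itself (edgeR interaction, FDR under 0.1; log2 change in Cb minus that in F/M). Among the members with a more positive change in Cb, the difference was 1.45 for Slc11a1, 1.33 for Laptm5, 0.41 for Cd63, 0.25 for Atp6v1f, 0.24 for Atp6v0e2, 0.20 for Npc1, 0.16 for Atp6v1g2, 0.14 for Lamp1, 0.13 for Atp6v1e1, 0.13 for Atp6v0d1, 0.12 for Atp6v1d, 0.12 for Atp6v0a2 and 0.10 for Laptm4a. It was negative for Mcoln1 (-0.15), Sidt2 (-0.20), Ctns (-0.36) and Atp6v0c (-0.51), and Atp6v0c was the 1 of these called in opposite directions in the tissues. Of the genes named from the further lists, Lamp5 (3.41), Cd68 (1.78) and Litaf (0.62) had a more positive change in Cb, as had Tcirg1 (0.41) and Wdr7 (0.15), and it was more negative for Dmxl1 (-0.15) and Dmxl2 (-0.20). The microglial, oligodendrocyte, Hox and cerebellar neuron markers moved between the same libraries, and their part in these differences was not tested.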

How the results depend on the processing

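The DEG counts of the members in Cb (4 higher, 0 lower) and the higher and lower counts at any fold change stayed within 1.5 times under every alternative run there. Several small counts and medians moved. In F/M, the count of lower members (2, all V-ATPase) was 1 with DESeq2, without a filter on low counts or at an FDR of 0.05, and 4 in 1 fit of 12 libraries, 2 of which were then other membrane proteins; without single libraries it was 0 to 2, and the count for the V-ATPase alone was also 0 to 2. Of the further lists in F/M, the other lysosomal membrane genes lower were 7 in 1 fit of 12 libraries (4 in the main test), the other V-ATPase genes higher were 0 with DESeq2, without a filter, in 1 fit of 12 libraries and at an FDR of 0.05 (1), and those lower were 3 at an FDR of 0.05 (5). Median log2 fold changes of the lysosomal membrane members moved to 0.18 without a filter in Cb, to 0.0947 in 1 fit of 12 libraries in F/M, and to 0.25 without a filter and 0.24 at a mean of 50 counts between control tissues. The V-ATPase genes higher in Cb-N (2) were 1 with DESeq2, RLE scaling, no filter, a mean of 50 counts or an FDR of 0.05. For the tissue-by-genotype term, members more positive in Cb (13) were 8 at a mean of 50 counts, and the V-ATPase part (7) was 4 with DESeq2, 4 with RLE scaling and 3 at a mean of 50 counts.

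Without single libraries the ranges were 1 (without Cb-T replicate 2) to 3 for the other V-ATPase genes higher in Cb, 0.14 to 0.17 for the Cb median of lysosomal membrane members, 1 to 3 for F/M DEG, 3 to 8 for V-ATPase genes higher in F/M, 0 (without F/M-N or F/M-T replicate 1) to 1 for the other V-ATPase genes higher in F/M, 2 (without F/M-T replicate 1 or 3) to 5 for those lower, with 3 left without F/M-N replicate 1 or 2, 0.12 to 0.15 for the F/M median, 1 (without F/M-N replicate 1 or 2 or Cb-N replicate 1 or 3) to 2 for V-ATPase genes higher in Cb-N, 0.18 to 0.22 for the control-tissue median, 0 to 1 for members 1.5-fold more negative in Cb, 6 to 15 for members more positive in Cb and 2 (without Cb-T replicate 1) to 9 for the V-ATPase part. The cause was not tested. Of the 6 paralog shares that overlapped between groups, 2 changed sign: T minus N in F/M ran from -0.21 to 0.07 points for Atp6v0e2 and from -0.32 to 0.35 points for Laptm4a, including 0.0676 without F/M-T replicate 2 for Atp6v0e2, and 0.355 without F/M-N replicate 1 and 0.0561 without F/M-T replicate 2 for Laptm4a.

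With the replicate number as a block, the members higher were 27 in Cb and 18 in F/M and the interaction count was 16, none of them over 1.5 times from the values without it; same-numbered libraries did not deviate together, and whether they share a mouse is not given in the sources used here. For single genes, 2342 of 2518 alternative values kept direction and call, 142 lost the call, 34 gained it and 0 called values changed sign; 34 values of uncalled genes did. Depth limits Atp6v0d2 and Mcoln2, with 0 to 20 counts per library.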
